A study of Mus musculus with 48 samples.

Results

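The intestine takes up inorganic sulfate and phosphate through membrane carriers of the solute carrier (SLC) families. Transcripts of 7 of these carriers were followed in the colon of mice with and without the clock gene Bmal1 in the intestinal epithelium. They are the sodium-sulfate cotransporter Slc13a1 (NaS1), its relative Slc13a2 (NaDC1), the sulfate anion exchangers Slc26a1 (Sat1) and Slc26a2 (DTDST), the widely expressed sodium-phosphate cotransporters Slc20a1 (PiT1) and Slc20a2 (PiT2), and the apical sodium-phosphate cotransporter Slc34a2 (NaPi-IIb). They were chosen by gene symbol, as 7 of the 55401 rows of the count table. The set was put together with earlier results of these mice known, among them the difference between genotypes, so that difference is given below as a description, without a p. The 7 genes do different work: Slc13a2 mainly carries dicarboxylates such as citrate and succinate, although it stands in the same family as the sulfate carrier Slc13a1.

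The colon of 48 adult male mice on a C57BL/6J background was profiled. All of them carried Bmal1 fl/fl. The 24 control mice were Villin wt/wt littermates and the 24 Bmal1 IEC-/- mice carried Villin CRE/wt, which drives the recombinase in intestinal epithelial cells and not in the muscle, connective tissue and immune cells of the same sample. Mice were housed alone with a running wheel and free access to chow, and 4 mice of each genotype were killed at circadian time (CT) 1, 5, 9, 13, 17 and 21 h on the second day of darkness. CT1, CT5 and CT9 are called day and CT13, CT17 and CT21 night. Bmal1 IEC-/- CT1 replicates SV384 and SV385 were not in the authors' set of 46 mice and were left out of the fits here, which leaves 2 mice in that group, and their values are shown with the levels.

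Sulfate taken up by these carriers is activated to the sulfate donor PAPS, which sulfotransferases use to sulfate mucins, steroids and phenols, and colonic mucin is heavily sulfated. Phosphate enters epithelial cells through the sodium-coupled carriers of the SLC34 family at the apical membrane and those of the SLC20 family, and Slc34a2 is best known as the phosphate carrier of the small intestine and lung. Many intestinal transporters vary over the day. The CLOCK-BMAL1 complex and the factors downstream of it bind E-boxes, ROR elements and D-boxes near genes.

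The promoters of 3 carriers are shown first, because the deleted gene encodes an E-box binding factor. The choice was limited to carriers with a promoter entry used here, which leaves out Slc13a1, Slc20a2 and Slc26a2. Slc26a1, which had too few reads to test, is not printed. The 250 bases before the start were read from a table of RefSeq promoters (GRCm38.p6), of which entries of 4 of the 7 genes were used here. Capitals mark matches, on either strand, to the E-box CACGTG, to AGGTCA, the core of the ROR element, and to the D-box TTATGNAA. The window of Slc20a1 is chr2:129198523-129198772 (plus strand), that of Slc34a2 chr5:53049103-53049352 (plus strand) and that of Slc13a2 chr11:78422235-78422484 (minus strand).
Slc13a2: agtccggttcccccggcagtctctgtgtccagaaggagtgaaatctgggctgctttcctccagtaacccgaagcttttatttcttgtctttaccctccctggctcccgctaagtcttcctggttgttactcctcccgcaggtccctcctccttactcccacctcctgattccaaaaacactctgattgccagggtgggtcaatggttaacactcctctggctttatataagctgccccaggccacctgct
Slc20a1: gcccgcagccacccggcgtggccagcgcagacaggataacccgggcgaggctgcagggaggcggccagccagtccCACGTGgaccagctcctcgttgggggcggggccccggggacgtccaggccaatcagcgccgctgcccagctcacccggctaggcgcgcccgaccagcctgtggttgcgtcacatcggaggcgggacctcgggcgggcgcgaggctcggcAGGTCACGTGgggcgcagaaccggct
Slc34a2: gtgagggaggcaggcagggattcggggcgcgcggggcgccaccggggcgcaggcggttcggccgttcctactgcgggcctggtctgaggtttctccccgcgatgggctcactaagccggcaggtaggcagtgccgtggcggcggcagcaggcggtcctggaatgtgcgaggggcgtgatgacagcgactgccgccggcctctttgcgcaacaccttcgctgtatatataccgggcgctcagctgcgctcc

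In the window of Slc20a1 an E-box began 175 bases before the start and another 22 bases before it, and the latter shared letters with an AGGTCA match that began 26 bases before it. Of 32851 RefSeq promoters read over the same 250 bases, 6.02% held the E-box and 0.429% held it at 2 or more positions, 14% held AGGTCA and 3.07% held the D-box. None of the 3 motifs stood in these letters of Slc34a2 or Slc13a2. The Slc34a2 window lies inside the annotated gene, which begins at chr5:53038081, and the bases before that position were not read. A second Slc20a1 start held AGGTCA without an E-box, 1 of the 2 Slc26a1 starts held an E-box 47 bases before it, and a match describes letters only.

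Total counts ran from 3144997 to 4785844 per mouse, and mice of a group differed by more than sampling noise in all 72 pairs (chi-square per gene 1.93 or more). Arntl, which encodes Bmal1, ran from 16 to 283 normalized counts over the control mice and from 85 to 180 over the Bmal1 IEC-/- mice, and its change of rhythm had an adjusted p of 4.07e-13 (edgeR). Its mean over the mice was 131 and 124 normalized counts, and counts over a whole gene do not show whether the floxed part is present. Epithelial markers were abundant in every mouse, their sum running from 18966 to 28511 normalized counts in control and from 21989 to 39465 in Bmal1 IEC-/- mice. In whole tissue, fewer cells of a type and less RNA per cell cannot be told apart. Summed smooth muscle markers ran from 13517 to 21499 normalized counts in control and from 3391 to 19842 in Bmal1 IEC-/- mice, 2 of the 6 listed genes being lower in the latter by adjusted p (edgeR), and the lowest value belonged to SV385. Summed small intestine markers ran from 652 to 2201 and from 516 to 1282 normalized counts, 1 of 5 tested genes being higher and 1 lower, and 3 of the 8 listed genes had too few reads to test. Of the epithelium list 2 genes were higher and 1 lower of 7, of the surface colonocyte list 0 and 2 of 7, of the goblet cell list 3 and 1 of 6, of the fibroblast list 0 and 1 of 6, of the pancreas list 1 and 0 of 2 tested, and of the T cell and the proximal and distal colon Hox lists none passed in either direction. The part of these shifts in the results below was not tested.

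Scaled to exon length, the carriers spanned over 2 orders of magnitude. In control mice Slc26a2 had 259 ± 36.2 normalized counts per kb (SD, n = 24), Slc13a2 227 ± 82.4 and Slc20a1 91.6 ± 15.2. Slc13a1 followed with 37.1 ± 10.7, Slc20a2 with 16.8 ± 2.59, Slc34a2 with 10.7 ± 12.5 and Slc26a1 with 0.828 ± 0.486 normalized counts per kb. Of the neighbours in this order, only Slc20a1 and Slc13a1 had ranges over mice that did not overlap, with 72.7 per kb as the lowest of the former and 63 as the highest of the latter.

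In Bmal1 IEC-/- mice the corresponding means per kb were 247 ± 42.7 for Slc26a2, 187 ± 62.6 for Slc13a2 and 71.4 ± 9.12 for Slc20a1 (SD, n = 24). Slc34a2 had 21.5 ± 11, Slc20a2 16.1 ± 2.35, Slc13a1 16.1 ± 4 and Slc26a1 0.92 ± 0.499 normalized counts per kb. The sodium-sulfate cotransporter Slc13a1 thus stood at the level of Slc20a2 in these mice. In control mice the lowest value of Slc13a1, 18.4 per kb, was below the highest of Slc20a2, 21.9.

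**Figure D1:**
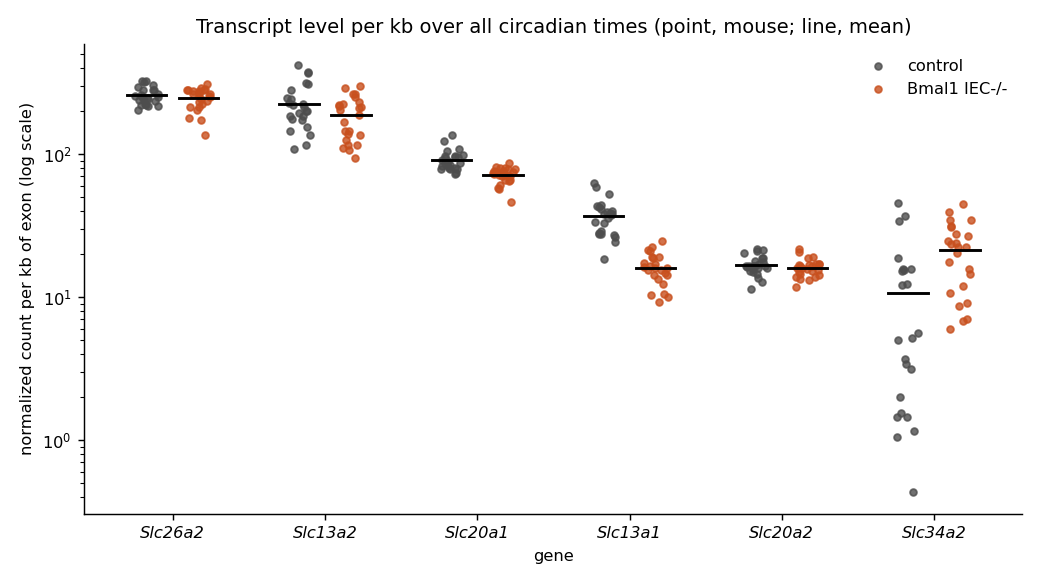
Normalized counts per kb of exon (y axis, log scale) of 6 carriers (x axis, ordered by their control mean), with a point for every mouse of each genotype and a line at the mean of 24 mice. The points of Slc34a2 spread far wider in control than in Bmal1 IEC-/- mice, those of Slc13a1 lie lower in Bmal1 IEC-/- mice, a control mouse with no Slc34a2 count is not drawn on the log axis, and Slc26a1, at 0 to 2.07 per kb, is not shown.

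Of the 7 carriers, 6 had enough reads to be among the 15073 genes tested. Slc26a1, a basolateral sulfate exchanger known from liver and kidney, did not: it had 0 to 8.39 normalized counts in a mouse, and a count of 0 allows up to 3. JTK_cycle, a rank test for a rhythm of 24 h, gave p = 1 in control and p = 0.0173 (q = 0.173) in Bmal1 IEC-/- mice (exact test, p adjusted over 12 phases), and 0.241 in the latter with all 48 mice. Its gene body overlaps Idua on the other strand, and the sources used here do not say whether reads were counted by strand.

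By genotype, averaged over the circadian times, Slc34a2 was higher and Slc13a1 was lower in Bmal1 IEC-/- mice. Slc20a1 was lower by a smaller step, and Slc26a2 and Slc20a2 had the smallest differences. Slc13a2 had a lower mean in Bmal1 IEC-/- mice at all 6 times only with SV384 and SV385 included. Without these mice its CT1 mean was higher, 586 ± 77.7 normalized counts (SD, n = 2), against 496 ± 39.9 in control mice (n = 4). At an adjusted p under 0.05 with a fold change of at least 1.5 (edgeR), 1 of the 6 was higher and 1 was lower, where 0.677% of all 15073 genes were called higher and 0.71% lower. By adjusted p alone 1 was higher and 2 were lower, against 4.83% and 5.72% of all genes. Since the set was chosen with these values known, nothing is read from these counts. The median difference of the 6 was -0.15 on the log2 scale, and that of all genes was -0.00048.

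The carrier with the widest change was Slc34a2, and it lay in the hours around dusk. In control mice it was high at CT1, with 171, 184, 230 and 78 normalized counts in the 4 mice, and had 61, 77, 79 and 94 at CT5. At CT9 the control mice had 6, 26, 16 and 5, at CT13 7, 2, 10 and 0, and at CT17 19, 7, 25 and 8 normalized counts. By CT21 they stood at 17, 62, 28 and 77. The control group means at CT1 and CT13, 166 and 4.86, had a ratio of 34.1. Without 1 mouse it ran from 25.6, without control CT13 replicate SV397, to 52.9, without control CT13 replicate SV396. SV397 is the mouse with 0, which could have up to 3 counts.

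In Bmal1 IEC-/- mice the same transcript never fell that far. It had 124, 134, 197 and 173 normalized counts at CT1, the first 2 values from the mice left out of the fits, and 174, 113, 139 and 154 at CT5. The mice had 101, 121, 79 and 113 normalized counts at CT9 and 53, 73, 226 and 119 at CT13, 158, 43, 30 and 60 at CT17 and 34, 88, 35 and 46 at CT21. Every Bmal1 IEC-/- mouse lay above every control mouse at CT5, CT9, CT13 and CT17, and the groups overlapped at CT1 and CT21.

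The group means of Slc34a2 differed by 0.948-fold at CT1, 1.86-fold at CT5, 7.83-fold at CT9, 24.2-fold at CT13, 4.94-fold at CT17 and 1.1-fold at CT21 (Bmal1 IEC-/- over control). At CT13 the means were 118 ± 77.3 and 4.86 ± 4.6 normalized counts (SD, n = 4 each), and the wide SD of the former comes with 1 mouse at 226. Without 1 mouse the ratio at CT13 ran from 16.8, without Bmal1 IEC-/- replicate SV395, the mouse at 226, to 37.6, without control replicate SV396. That at CT17 ran from 3.01, without Bmal1 IEC-/- replicate SV416, the mouse with 158 normalized counts, to 6.49, without control replicate SV417. Averaged over times the fitted difference was 1.52 on the log2 scale (SE 0.27), a 2.87-fold higher level. Without the circadian time in the model it was 0.98 (SE 0.35). The antisense gene Gm17182, which overlaps Slc34a2, had at most 2.05 normalized counts.

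The daily course of Slc34a2 differed between the genotypes. JTK_cycle gave p = 4.07e-07 in control mice with a peak at CT2, and p = 0.0386 in Bmal1 IEC-/- mice with a peak at CT6 (exact test). The Benjamini-Hochberg q over all transcripts was 6.58e-05 and 0.29, so the weaker rhythm of the Bmal1 IEC-/- mice did not hold over all transcripts. With all 48 mice JTK_cycle placed the Bmal1 IEC-/- peak at CT4, and the highest group mean was at CT1 in both genotypes. The amplitude of a fitted cosine was 131% of the mean level for control and 36.5% for Bmal1 IEC-/- mice. The test of the change of rhythm itself, which asks whether a 24-h cosine and sine take other coefficients in the other genotype, had an adjusted p of 2.07e-05 (edgeR, 46 mice), and it stayed below 0.05 whichever mouse was left out. Over all genes 141 of 15073 (0.935%) were called in that test. Since the set was chosen with earlier results of these mice known, its calls in that test may not be independent of the choice.

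**Figure D2:**
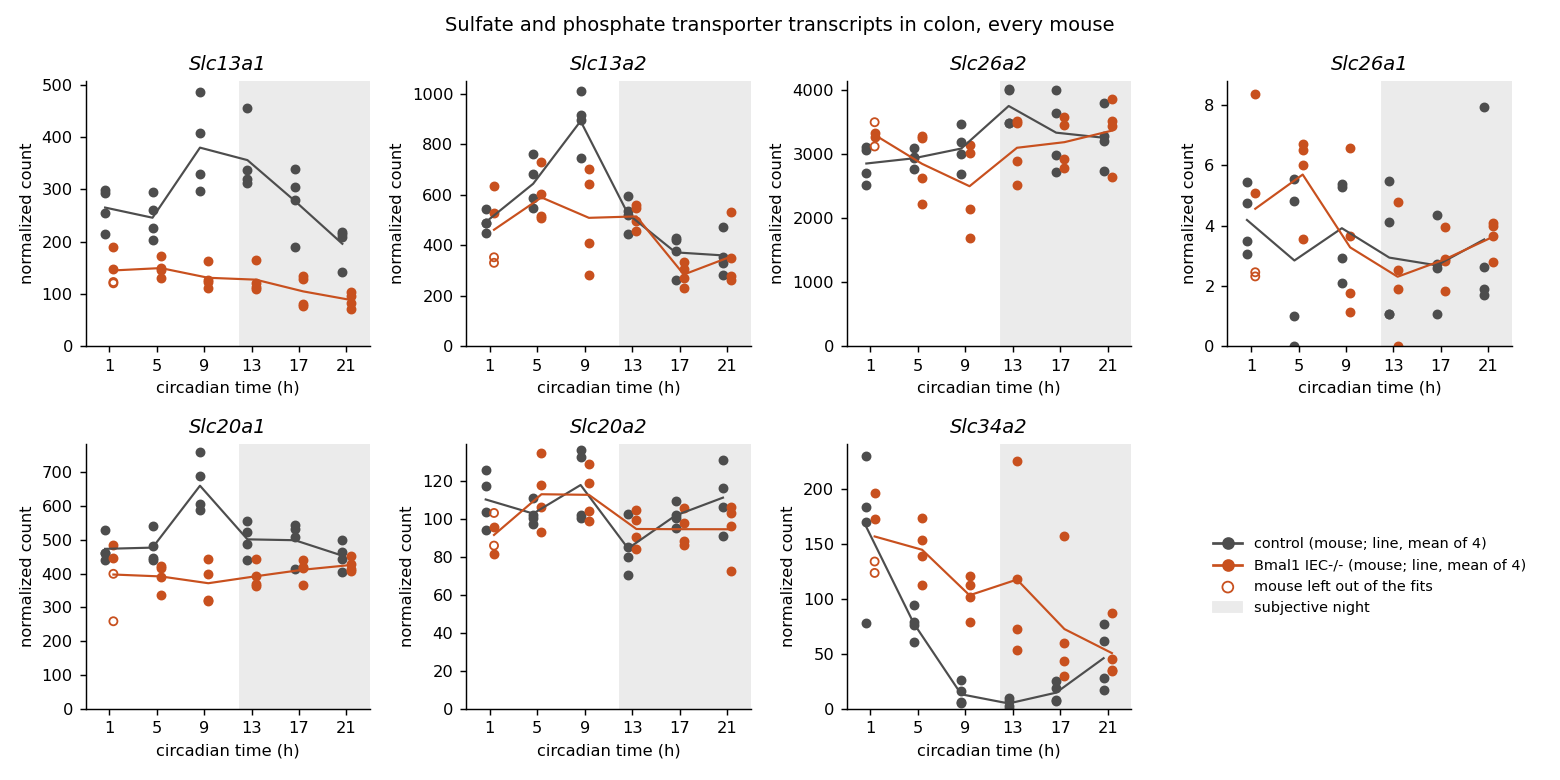
Normalized counts (y axis, from 0) against circadian time (x axis, h) of the 7 carriers, with a point for every mouse, open for the 2 left out of the fits, a line through the means of 4 mice and the night shaded. Control Slc34a2 falls from 166 at CT1 to 4.86 at CT13 while Bmal1 IEC-/- mice stay at 50.8 or above on average, Slc13a1 lies lower in Bmal1 IEC-/- mice at each time, and Slc13a2 and Slc20a1 show a control peak at CT9.

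Slc13a1, which carries sulfate from the lumen into the epithelium, had a lower level in Bmal1 IEC-/- mice at all 6 times, with no overlap of the groups. Control mice had 254, 293, 215 and 299 normalized counts at CT1, 295, 260, 203 and 226 at CT5 and 329, 297, 487 and 408 at CT9. At night they had 456, 320, 337 and 311 at CT13, 339, 189, 304 and 279 at CT17 and 142, 219, 214 and 209 at CT21. The control level was highest in late day and early night and lowest at CT21.

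The Bmal1 IEC-/- mice had 120, 123, 190 and 147 normalized counts of Slc13a1 at CT1, 149, 172, 146 and 131 at CT5 and 126, 123, 111 and 163 at CT9. At night they had 120, 110, 166 and 113 at CT13, 134, 80, 77 and 128 at CT17 and 82, 104, 96 and 72 at CT21. Every Bmal1 IEC-/- mouse lay below every control mouse of its time at all 6 times. The ratio of means was lowest at CT9, 0.344, where control had 380 ± 85.2 and Bmal1 IEC-/- 131 ± 22.6 (SD, n = 4 each), and nearest to 1 at CT5, 0.608. The fitted difference was -1.19 on the log2 scale (SE 0.09), a fold of 0.437, and it ran from -1.23 to -1.16 when each mouse in turn was left out.

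Its rhythm changed less clearly than its level. JTK_cycle gave p = 0.000935 (q = 0.0101) with a peak at CT10 in control and p = 0.0173 (q = 0.173) with a peak at CT6 in Bmal1 IEC-/- mice (exact test). Relative amplitude was 27.7% and 21.1%, and the change of rhythm did not pass, with an adjusted p of 0.263 (edgeR).

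Slc13a2 followed a steep daily course in control mice that peaked at CT9. Control mice had 447, 487, 543 and 488 normalized counts at CT1, 681, 759, 585 and 548 at CT5 and 914, 744, 897 and 1011 at CT9, and 535, 594, 445 and 518 at CT13. They had 377, 261, 429 and 419 at CT17 and 282, 331, 352 and 473 at CT21. All 4 control mice at CT9 lay above every control mouse at CT13, CT17 and CT21.

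At CT9 the Bmal1 IEC-/- mice had 640, 702, 282 and 408 normalized counts of Slc13a2, all below the control mice, with a ratio of means of 0.57. At the other 5 times the groups overlapped, with values from 229 to 729 in Bmal1 IEC-/- mice. The fitted average difference was -0.22 (SE 0.09). JTK_cycle gave p = 2.4e-08 (q = 1.2e-05, peak CT8) in control and p = 0.00568 (q = 0.0876, peak CT6) in Bmal1 IEC-/- mice (exact test), and the change of rhythm did not pass (adjusted p = 0.618, edgeR). An antisense gene, Slc13a2os, overlaps it and had 12.7 to 171 normalized counts, and reads of the pair cannot be told apart if strand was not used in counting.

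Slc20a1, a sodium-phosphate carrier of most tissues and a receptor for some retroviruses, peaked at CT9 in control mice. Control mice had 606, 589, 760 and 688 normalized counts at CT9, and between 406 and 555 at the other 5 times. The Bmal1 IEC-/- mice had 323, 321, 399 and 445 at CT9 and between 259 and 485 at the other times, the 259 belonging to SV385. The peak hour of the control mice was thus the hour with the lowest mean of the Bmal1 IEC-/- mice.

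The groups of Slc20a1 did not overlap at CT5 and CT9, and the ratio of means was 0.563 at CT9, where control had 661 ± 79.3 and Bmal1 IEC-/- 372 ± 60.8 normalized counts (SD, n = 4 each). The fitted average difference was -0.33 (SE 0.05), a fold of 0.795, below the fold threshold of 1.5. Its change of rhythm had an adjusted p of 0.0218 over 46 mice (edgeR). This call depended on which mice were used: with all 48 mice it was 0.0865, and without control CT9 replicate SV412 or SV415 it was 0.059 or 0.058. JTK_cycle gave p = 0.0178 (q = 0.0932, peak CT10) in control and p = 0.154 (q = 0.715) in Bmal1 IEC-/- mice (exact test). The window of this gene, with an E-box at 2 positions, is printed above, and whether these letters bear on its course was not tested.

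The remaining carriers moved little. Slc26a2, the most abundant per kb, which exchanges sulfate for chloride and is needed for sulfation in cartilage, had 2522 to 4024 normalized counts over control mice and 1684 to 3862 over Bmal1 IEC-/- mice, with a fitted difference of -0.09 (SE 0.06). All 4 Bmal1 IEC-/- mice were above the control mice at CT1, 3300 ± 157 against 2852 ± 283 (SD, n = 4 each). The gap was narrow, with 3118 in SV384, a mouse left out of the fits, against 3112 in control replicate SV455. The groups overlapped at the other 5 times. JTK_cycle gave p = 0.0213 (q = 0.107, peak CT14) in control and p = 0.056 (q = 0.37, peak CT20) in Bmal1 IEC-/- mice (exact test), and the change of rhythm did not pass (adjusted p = 0.407, edgeR).

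Slc20a2, the other phosphate carrier of its family, had 70 to 136 normalized counts over control mice and 73 to 135 over Bmal1 IEC-/- mice, and the groups overlapped at all 6 times. Its fitted difference was -0.06 (SE 0.06), JTK_cycle gave p = 0.61 and p = 0.28 (exact test), and the change of rhythm had an adjusted p of 0.712 (edgeR). It shares part of its locus with Smim19 on the other strand and with the intronic transcript Gm17491, which had 52.9 and 56.1 normalized counts in the median mouse.

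**Figure D3:**
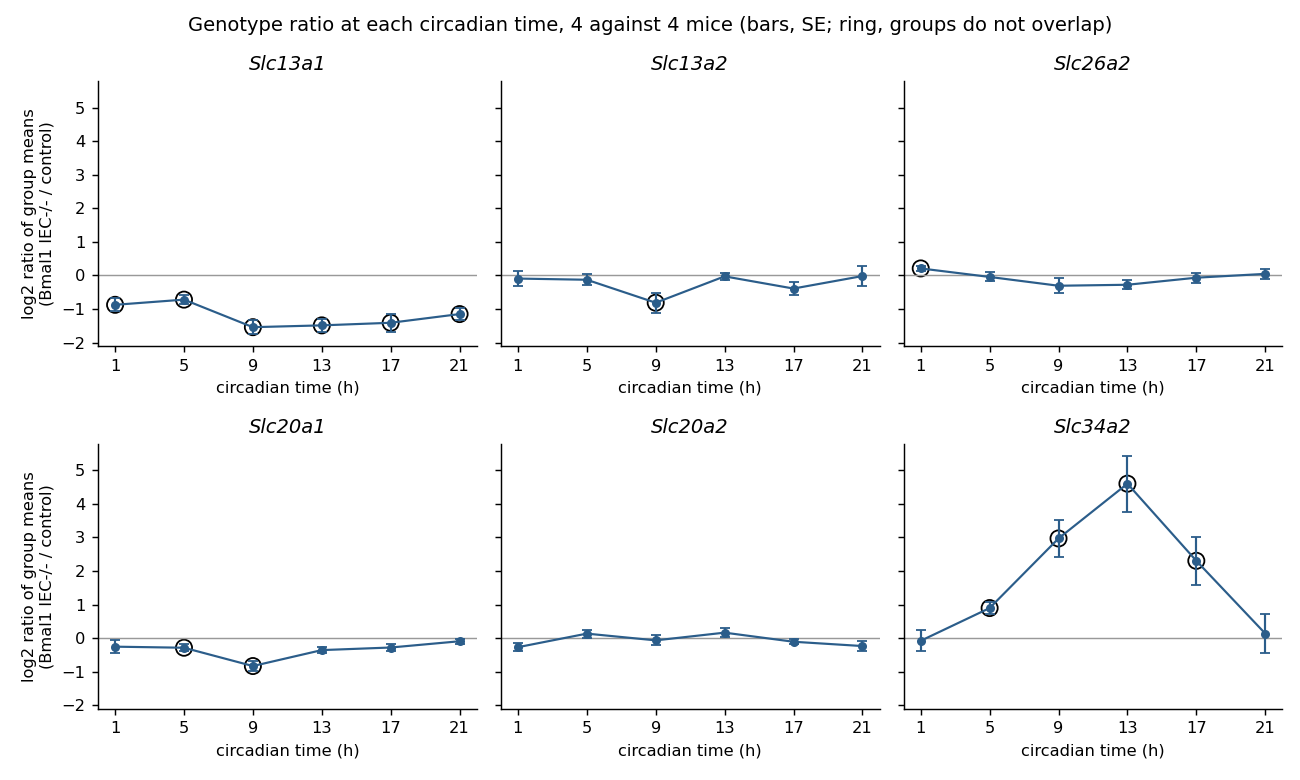
Log2 ratio of group means, Bmal1 IEC-/- over control (y axis), at each circadian time (x axis, h) for the 6 carriers that passed the filter, with bars of 1 SE of the ratio from 4 against 4 mice and a ring where the groups do not overlap. Slc34a2 reaches 4.6 at CT13 and is near 0 at CT1 and CT21, Slc13a1 stays between -1.54 and -0.72, and the other carriers lie between -0.83 and 0.21.

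Counted by time, the groups of 4 did not overlap for 2 of the 7 carriers at CT1, 3 at CT5, 4 at CT9, 2 at CT13, 2 at CT17 and 1 at CT21. Over all genes the groups did not overlap for 19.2% at CT1, 4.06% at CT5, 4.23% at CT9, 13% at CT13, 4.75% at CT17 and 4.57% at CT21, and since the set was chosen with genotype values known, nothing is read from these counts. For rhythm, 5 of the 6 tested carriers passed JTK_cycle in control mice (p under 0.05) and 3 in Bmal1 IEC-/- mice. Of all genes tested for genotype, 48.8% and 28.5% did. Over all transcripts (q under 0.05) 3 carriers remained in control mice, Slc13a1, Slc13a2 and Slc34a2, and 0 in Bmal1 IEC-/- mice. A cosine fit in edgeR called 5 carriers in control mice, all tested but Slc20a2, and 2 in Bmal1 IEC-/- mice, Slc13a1 and Slc13a2.

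Split into day and night, the genotype difference of Slc34a2 was 0.67 on the log2 scale by day (SE 0.40) and 1.86 by night (SE 0.46). Slc13a1 had -1.04 (SE 0.15) and -1.37 (SE 0.15), and Slc20a1 had -0.44 (SE 0.08) and -0.24 (SE 0.08). The interaction of genotype with day and night was not called for any carrier in edgeR: the smallest p was that of Slc34a2, 0.0574 before and 0.584 after adjustment, 0 had an unadjusted p under 0.05, and DESeq2 also called 0. With all 48 mice its p was 0.048 before and 0.38 after adjustment. Over all genes 0.0531% were called. Day and night cut through the course of Slc34a2, whose ratio was near 1 at CT1 and CT21 and high from CT9 to CT17.

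The courses of the carriers over the 12 group means were not alike. Pearson r of log2 CPM was 0.81 between Slc13a1 and Slc20a1 and 0.57 between Slc13a1 and Slc13a2, and Slc34a2 had an r of -0.62 with Slc20a1, -0.63 with Slc26a2 and -0.57 with Slc13a1. These are descriptions over group means of the same mice. The genes most like each carrier were Slc35f5 (r = 0.98) and Mdm1 (0.97) for Slc34a2, and Upp1, a uridine phosphorylase, (0.96) and Sis, the disaccharidase sucrase-isomaltase, (0.96) for Slc13a1. Slc13a2 was most like Hectd3 (0.98) and the nucleotide receptor P2ry2 (0.98). Slc20a1 was most like the fructose carrier Slc2a5 (0.92), Slc20a2 like Strada (0.93) and Rragb (0.92), and Slc26a2 like Gm48604 (0.89) and the argonaute Ago2 (0.88).

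Of 82 other genes of sulfate and phosphate handling, 60 were tested. By adjusted p the Bmal1 IEC-/- mice had 5 at a higher and 8 at a lower level (edgeR), where 4.83% and 5.72% of all genes were. The median difference was -0.05 on the log2 scale against -0.00048 for all genes. These genes too were listed with earlier results of these mice known. Nothing is therefore read from these counts or from those by group below, and their differences by genotype are descriptions. Past both thresholds were Slc26a3 (DRA), the chloride-bicarbonate exchanger of surface colonocytes, which was lower, and Alpi, the intestinal alkaline phosphatase that releases phosphate at the brush border, which was higher. Slc26a3 had 906 ± 186 normalized counts in control (SD, n = 24) and 527 ± 153 in Bmal1 IEC-/- mice (n = 22), a difference of -0.77 (SE 0.08). Alpi had 45.4 ± 15.4 and 72.2 ± 26.9 normalized counts, a difference of 0.64 (SE 0.12). Alpi was also on the list of small intestine markers above.

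The change of rhythm was called for 1 of the 60, where 0.935% of all 15073 genes were called. It was Slc9a3r1 (NHERF1), a scaffold that binds apical carriers including sodium-phosphate cotransporters (adjusted p = 0.000356, edgeR). As these genes were listed with earlier results of these mice known, the call may not be independent of that choice. The control mean of Slc9a3r1 rose from 435 ± 47.3 at CT1 to 1067 ± 156 normalized counts at CT13 (SD, n = 4 each), while in Bmal1 IEC-/- mice it went from 493 ± 25.7 (n = 2) to 587 ± 61.4 (n = 4). Its average difference was -0.47 (SE 0.06). Control Slc9a3r1 was thus highest at the hour at which control Slc34a2 was lowest.

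**Figure D4:**
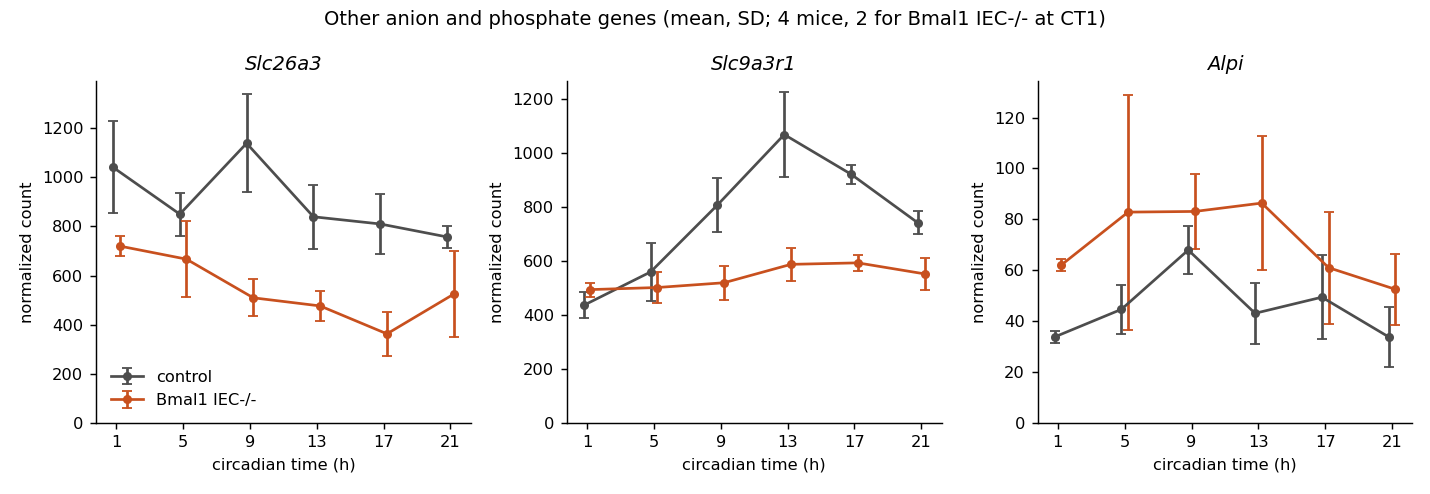
Mean normalized count (y axis, from 0; bars, SD of 4 mice, 2 for Bmal1 IEC-/- at CT1) against circadian time (x axis, h) of Slc26a3, Slc9a3r1 and Alpi. Slc26a3 is lower in Bmal1 IEC-/- mice at each time on average, control Slc9a3r1 climbs to 1067 at CT13 while Bmal1 IEC-/- mice stay between 493 and 592, and Alpi is higher on average at each time.

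By group, 1 of 4 tested SLC26 and SLC13 relatives was lower (Slc26a3) and 0 were higher. Of 16 tested phosphate carriers, exporters and regulators 1 was higher and 4 were lower. These were named after their values were seen: Slc17a1, a sodium-phosphate cotransporter, was higher by 0.40 (SE 0.09), and beside Slc9a3r1 the vitamin D receptor Vdr was lower, -0.29 (SE 0.04), as were Slc37a1, -0.22 (SE 0.05), and the receptor Fgfr1, -0.20 (SE 0.06). Vdr had 2327 ± 221 and 1925 ± 172 normalized counts.

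Of the 6 genes of sulfate activation, Papss2, a synthase of the sulfate donor PAPS, was higher by 0.14 (SE 0.04) and none was lower. Of 20 tested sulfotransferases 2 were higher, the phenol sulfotransferase Sult1a1 by 0.19 (SE 0.04) and Sult1b1 by 0.18 (SE 0.05), and 3 were lower, Sult2b1, a sterol sulfotransferase, with -0.48 (SE 0.09), the mucin-sulfating enzyme Chst4 with -0.22 (SE 0.05) and Chst12 with -0.31 (SE 0.10). Alpi was the 1 phosphatase of 7 tested that was higher, and none was lower. None of the 7 sulfide and sulfite oxidation genes was higher or lower by adjusted p. All 7 passed JTK_cycle in control mice and 4 did in Bmal1 IEC-/- mice, where 48.8% and 28.5% of all genes did.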

How the data were processed

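Colon RNA of 48 mice was sequenced from stranded mRNA libraries. The authors trimmed reads with Trimmomatic 0.39, aligned them to mm10 with STAR 2.7.5c and counted reads per gene with featureCounts 1.4.6, on exons, at a mapping quality of at least 4. The deposited values are these raw counts, without normalization. The strand setting is not given in the sources used here. Identifiers were matched to GENCODE vM21.

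Counts were divided by DESeq2 size factors for levels. Tests used edgeR 4.0.16 (quasi-likelihood, TMM, filterByExpr on 12 groups, R 4.3.3) over the 46 mice whose size factors a rhythm table of the authors carries: genotype with circadian time, genotype by day or night, and genotype by a 24-h cosine and sine, with Benjamini-Hochberg adjustment over 15073 genes. Rhythm within a genotype was tested by an own implementation of JTK_cycle (12 phases). A standard error is the fitted difference over the root of F. Methods were tested on simulated data. DESeq2 1.42.0 and limma 3.58.1 served as alternatives. Counting error alone allows up to 3 counts where 0 was counted.

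The members and gene lists were chosen with earlier results of these data known. Named genes are the 7 members, pathway genes called in either test, the 2 genes most like each member (1 of them is not reported here), Arntl, and marker lists as sums. Mice are separate animals. The labels give no batch.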

Additional observations from a re-analysis of the deposited data

Results flagged for a closer look

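The daily course differed between genotypes by the test of the difference itself for Slc34a2 (adjusted p = 2.07e-05, edgeR) and Slc20a1 (adjusted p = 0.0218, edgeR, 46 mice). Both belong to a set chosen with earlier results of these mice known, so these calls may not be independent of that choice. Of 84 groups of 4 mice tested over the 7 carriers, 2 held a mouse far from the other 3, where chance gives about 1 in 20: control CT21 replicate SV441 had 142 normalized counts of Slc13a1 against 209 or more in the other mice, and control CT21 replicate SV476 had 7.95 normalized counts of Slc26a1 against at most 2.61.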

How the results depend on the processing

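Of 1254 combinations of a tested carrier with an alternative, 1214 kept their side of the threshold, 32 lost a call, 8 gained a call and 0 reversed a called direction. The interaction with day and night of Slc20a2 and Slc26a2, not called, changed sign in 15 of the combinations. The number of genes called by genotype, 209, was 319 without the filter on low counts and 53 in a test against the 1.5-fold change itself, and 201 to 236 without 1 mouse. Without the time term 1 carrier in place of 2 passed, Slc34a2 (0.98) being the other, and 2 were called whichever mouse was left out. Genes called in the interaction with day and night, 8, were 20 with 48 mice, 18 in DESeq2 and 7 to 16 without 1 mouse, the counts over 1.5 times coming without SV434 or SV469. Genes with a change of rhythm, 141, were 281 with 48 mice, 76 with circadian time as a factor and 109 to 166 without 1 mouse. The carriers among them, 2, were 1 with 48 mice and 1 to 2 without 1 mouse, Slc20a1 being lost. By q over transcripts in place of p, rhythmic transcripts fell from 7810 to 5018 in control and from 4597 to 1396 in Bmal1 IEC-/- mice, and the carriers among them from 5 to 3 and from 3 to 0. Without 1 mouse these were 7244 to 7790 transcripts and 4 to 5 carriers in control mice, and 4094 to 4982 transcripts and 2 to 5 carriers in Bmal1 IEC-/- mice, 5 without SV418. The control rhythm of Slc26a2 was lost without 4 of 24 mice and that of Slc20a1 without 6, and the Bmal1 IEC-/- rhythm of Slc34a2 without 12 of 22, with p up to 0.118 (exact test). The cause was not tested. At this depth Slc26a1 and the control trough of Slc34a2 rest on few counts.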
